A study of Arabidopsis thaliana with 12 samples.

Results

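TIR-NBS-LRR receptors are the immune receptors of dicot plants that carry a Toll/interleukin-1 receptor (TIR) domain, a nucleotide-binding site and leucine-rich repeats. The genes described here are those TIR-NBS-LRR genes of Arabidopsis thaliana that lie outside the RPP5 and SNC1 cluster and outside the head-to-head receptor pairs. They were given as a list of 60 gene codes, of 24228 genes in the table of counts. Of these 60, the table held 56, and 48 had a mean of at least 10 counts in at least 1 group and were kept. The other 8 genes of the table stayed under this minimum (AT5G41540, AT5G18350, AT5G17970, AT5G49140, AT3G51560, AT1G63870, AT5G45220 and AT2G17050), and AT5G45200, AT5G45210, AT5G45230 and AT3G51570 were not analysed here. The minimum was reached in each of the 4 groups by 42 of the 48 kept receptors, and AT5G48770 reached it in wild type after 2'cADPR alone. Counts over the 48 therefore describe the receptors expressed in these leaves and not all 60.

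RNA from rosette leaves was sequenced in 12 libraries, 3 in each of 4 groups. The plants were wild type Col-0 or a PAD4 knockout, called pad4 here, and leaves of each genotype received 2'cADPR or, as control, water. Its stated question was the function of 2'cADPR and how far that function needs the EDS1-PAD4-ADR1 pathway. The sources used here give no PAD4 allele, dose, time after treatment or plant age. They also do not say whether the 3 libraries of a group came from separate plants, so that the p-values reflect library-to-library spread, which may be technical.

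When a TIR-NBS-LRR receptor recognises a pathogen effector, its TIR domains assemble into an enzyme that consumes NAD and makes small nucleotide signals. Such signals bind complexes of EDS1 with PAD4 or with SAG101, which then engage the helper receptors of the ADR1 and NRG1 families and lead to salicylic acid accumulation, transcriptional reprogramming and, in some cases, cell death. Plant and bacterial TIR domains can produce 2'cADPR, a variant of cyclic ADP-ribose, and the receptor genes are themselves known to be expressed at low levels in healthy leaves and to be induced during immune responses.

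Upstream sequence is shown for 5 receptor genes whose transcripts behaved differently: RMG1, which had the largest rise with 2'cADPR, AT4G14370, another of the largest rises, the neighbours AT4G19520 and AT4G19530, which moved in opposite directions, and AT1G63880, which passed no test for 2'cADPR. Each window holds the 250 bases before the annotated transcript start, from the RefSeq annotation of TAIR10.1, written 5′ to 3′ on the gene's strand. Capitals mark the W-box core TTGACC or TTGACT, the motif bound by WRKY transcription factors, on either strand, so that it also appears as GGTCAA or AGTCAA.
RMG1: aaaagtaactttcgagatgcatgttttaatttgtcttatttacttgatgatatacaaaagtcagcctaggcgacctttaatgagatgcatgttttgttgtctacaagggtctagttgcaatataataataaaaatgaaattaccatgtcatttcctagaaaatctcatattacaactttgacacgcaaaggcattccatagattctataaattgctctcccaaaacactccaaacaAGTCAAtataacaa
AT4G14370: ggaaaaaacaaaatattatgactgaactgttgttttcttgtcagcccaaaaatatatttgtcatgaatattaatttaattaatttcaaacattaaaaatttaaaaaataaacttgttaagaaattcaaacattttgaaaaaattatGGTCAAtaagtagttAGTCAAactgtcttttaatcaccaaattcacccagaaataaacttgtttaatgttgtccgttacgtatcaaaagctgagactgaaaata
AT4G19520: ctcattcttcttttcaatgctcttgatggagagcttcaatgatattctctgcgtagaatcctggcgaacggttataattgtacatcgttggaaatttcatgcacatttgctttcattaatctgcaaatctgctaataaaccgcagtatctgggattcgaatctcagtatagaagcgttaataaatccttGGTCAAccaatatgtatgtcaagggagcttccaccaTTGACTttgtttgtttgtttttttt
AT4G19530: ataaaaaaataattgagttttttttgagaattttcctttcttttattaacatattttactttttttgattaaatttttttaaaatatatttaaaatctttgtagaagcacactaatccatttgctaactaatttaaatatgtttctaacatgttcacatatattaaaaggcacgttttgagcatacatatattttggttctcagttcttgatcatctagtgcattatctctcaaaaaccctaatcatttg
AT1G63880: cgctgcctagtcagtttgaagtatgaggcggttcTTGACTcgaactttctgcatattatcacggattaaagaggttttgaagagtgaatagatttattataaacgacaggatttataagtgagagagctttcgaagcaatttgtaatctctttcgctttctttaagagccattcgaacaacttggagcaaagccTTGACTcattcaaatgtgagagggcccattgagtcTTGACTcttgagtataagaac
These windows are chr4:6810853-6811102 (plus strand) for RMG1, chr4:8283536-8283785 (minus strand) for AT4G14370, chr4:10647281-10647530 (minus strand) for AT4G19520, chr4:10651494-10651743 (plus strand) for AT4G19530 and chr1:23716207-23716456 (minus strand) for AT1G63880. The RMG1 window held 1 core, those of AT4G14370 and AT4G19520 held 2 each and that of AT1G63880 held 3, while the letters did not occur in the AT4G19530 window. Among the 48 kept receptors, 24 (50%) held at least 1 core in this window, against 28.4% of the 27444 protein-coding genes of chromosomes 1 to 5. With the 50 bases after the start included, the shares were 64.6% and 32.4%. The core was in the window of 18 of the 36 receptors that rose in wild type, and of 9 of the 20 that rose at least 2-fold. It was in 1 of the 4 that fell and in 5 of the 8 that passed the test in neither direction. A match is a description of the letters and not a binding site.

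Library totals ran from 35.8 to 44.4 M (1e6) counts. The targeted gene PAD4 stood at 68.6 ± 5.78 CPM (counts per 1e6 of the normalised library total; mean ± SD, n = 3) in wild type after water and 552 ± 36.0 CPM with 2'cADPR, and the 6 pad4 libraries held between 2.52 and 5.51 CPM. All 6 pad4 libraries lay below all 6 wild type libraries (log2 difference -5.60, exact two-sided permutation p = 0.00216 over 924 splits). That p is the smallest this test can give, with both treatments pooled. Since PAD4 is the gene knocked out, it only checks the genotype labels.

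Levels per gene length, in the deposited FPKM (fragments per kilobase of exon and 1e6 counts), placed the 48 receptors close to the typical tested gene in wild type. Their median after water was 7.20 FPKM in wild type, beside 7.97 FPKM over the 19652 tested genes. In pad4 after water the median was 3.41 FPKM, beside 7.79 FPKM over the tested genes. Receptor transcript was thus spread widely, from genes at a few hundredths of an FPKM to genes among the more abundant in the leaf.

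In wild type after water the highest receptor was AT4G19530 at 32.2 ± 1.39 FPKM (SD, n = 3), a receptor annotated as inducing cell death when expressed transiently in tobacco. AT1G63880, a receptor annotated with resistance to the blackleg fungus Leptosphaeria maculans, stood second at 28.9 ± 3.43 FPKM, with overlapping spreads. A clear step separated these from AT1G31540 at 16.4 ± 1.80 FPKM, WRR4 at 16.1 ± 1.49 FPKM and AT3G44670 at 15.7 ± 1.38 FPKM, which did not differ from one another beyond their spread. After 2'cADPR the order in wild type changed: AT3G44670 led at 37.6 ± 3.74 FPKM, followed by AT5G41740 at 37.0 ± 4.16 FPKM and AT3G44630 at 36.3 ± 3.32 FPKM, with overlapping spreads. In pad4, AT4G19530 led after water (37.5 ± 0.569 FPKM) and after 2'cADPR (33.9 ± 0.991 FPKM). The summed FPKM of the 48 receptors was 371 ± 25.2 in wild type after water, 622 ± 40.8 in wild type after 2'cADPR, 275 ± 20.7 in pad4 after water and 274 ± 8.05 in pad4 after 2'cADPR (SD, n = 3).

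**Figure D1:**
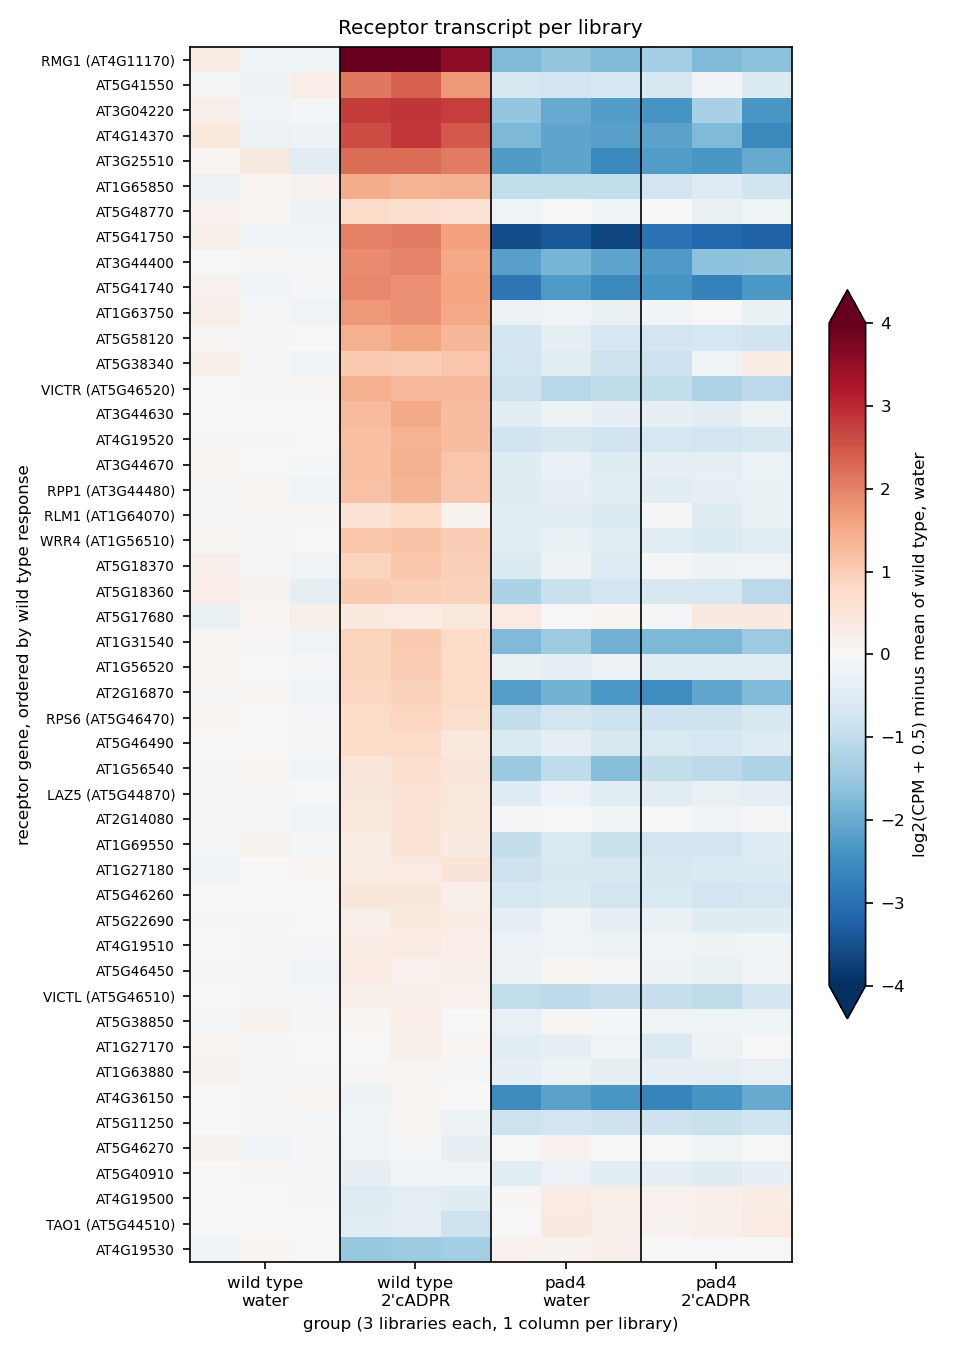
Transcript level of the 48 kept receptors in each of the 12 libraries, as log2(CPM + 0.5) minus the mean of the 3 wild type water libraries; columns are libraries in groups of 3, rows are genes ordered by their wild type response, and colour runs from blue (lower) to red (higher). Most rows are red only in the 3 wild type libraries that received 2'cADPR, and AT5G41750 and AT4G36150 are blue in all 6 pad4 libraries.

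The first comparison asked how 2'cADPR changed receptor transcripts in wild type leaves. Of the 48 receptors tested, 36 rose and 4 fell (edgeR quasi-likelihood test, Benjamini-Hochberg adjusted p under 0.05), and 8 passed in neither direction. Over all tested genes, 69.2% were called, 34.6% up and 34.6% down, so that a call as such was common in this comparison. A rise of at least 2-fold was called for 20 receptors (41.7%), against 12.8% of all tested genes, and a fall of at least 2-fold for 1, against 17.8%. The median log2 fold change was 0.90 over the receptors and -0.015 over all tested genes. Over the 42 receptors that reached the minimum in every group, 32 rose and 4 fell, with a median of 0.72.

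**Figure D2:**
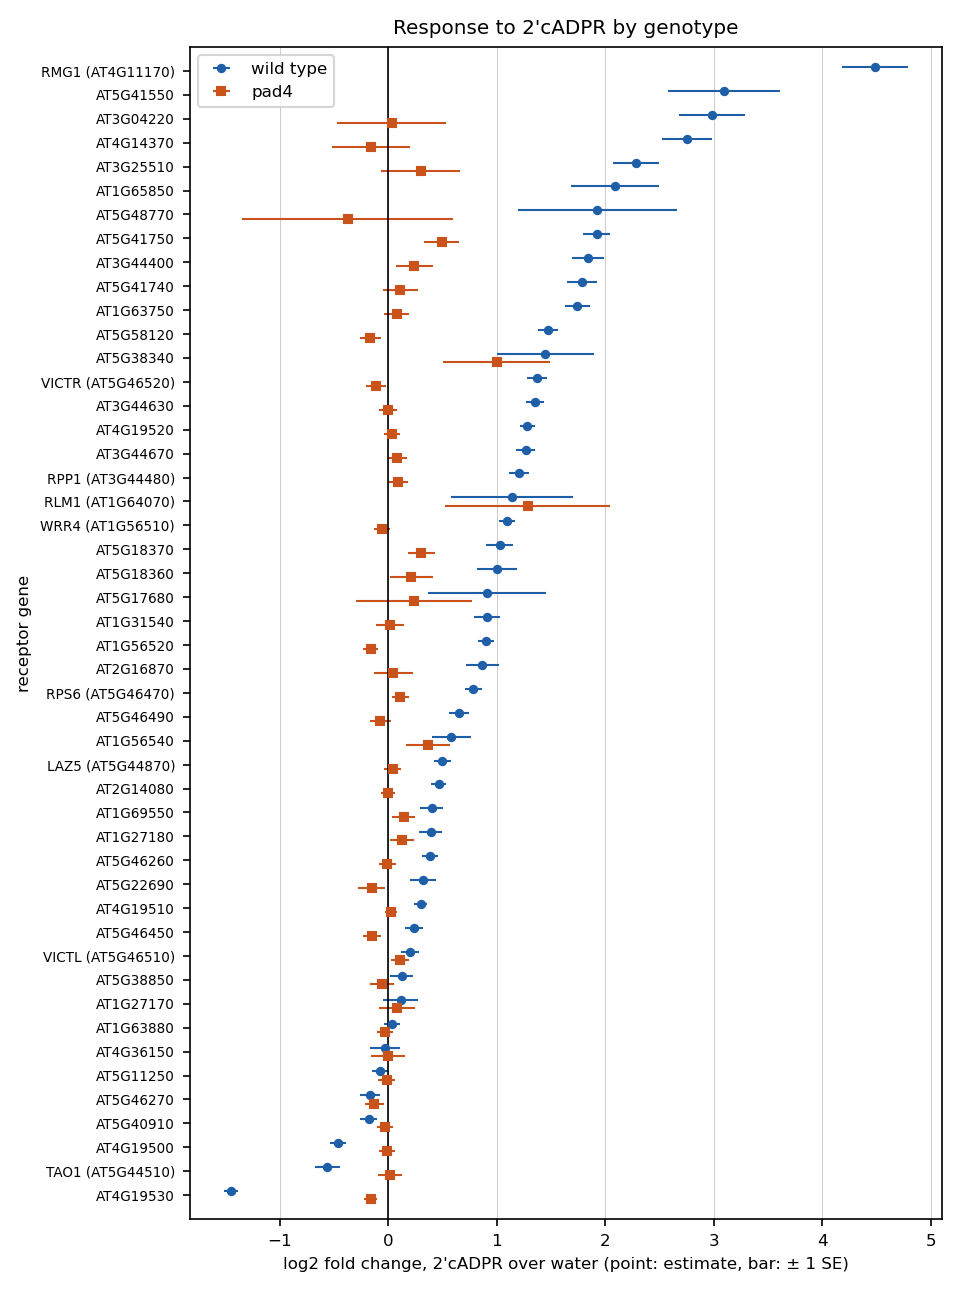
Log2 fold change of each receptor for 2'cADPR over water in wild type (circles) and in pad4 (squares), with bars of 1 standard error; the pad4 values of RMG1, AT5G41550 and AT1G65850 are left out because pad4 after water held at most 3 reads of each (the text gives their reads). Wild type values of all 48 receptors run from -1.45 (AT4G19530) to 4.49 (RMG1). The pad4 values of the 32 receptors with at least 5 CPM in a pad4 group run from -0.17 to 0.30. These 32 are a subset without RMG1, AT4G14370 and other scarce genes. The squares drawn for all receptors run from -0.38 to 1.28 (RLM1).

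The largest rise was that of RMG1 (AT4G11170), a receptor gene known for control by DNA methylation and for induction by bacterial flagellin. Its 3 wild type water libraries held 1.59, 1.04 and 1.01 CPM, and the 3 libraries with 2'cADPR held 31.1, 30.6 and 19.8 CPM. The lowest treated library was thus many times the highest water library, and the log2 fold change was 4.49 ± 0.30 (SE; adjusted p = 4.49e-09). AT3G04220 held 3.66, 2.77 and 2.91 CPM with water and 24.2, 25.7 and 23.7 CPM with 2'cADPR, with a log2 fold change of 2.98 ± 0.31 (adjusted p = 4.70e-07). AT4G14370 held 5.88, 3.54 and 3.65 CPM with water and 28.5, 33.5 and 25.7 CPM with 2'cADPR, with a log2 fold change of 2.75 ± 0.23 (adjusted p = 5.14e-08). In both genes the groups were far apart. AT3G25510 rose from 3.86 ± 1.17 to 18.8 ± 1.16 CPM (log2 2.28 ± 0.21; adjusted p = 1.53e-07; SD, n = 3). AT5G41550 and AT1G65850 belonged to the largest rises by fold but were scarce, at 3.09 ± 0.756 and 2.16 ± 0.113 CPM with 2'cADPR (log2 3.09 ± 0.52 and 2.09 ± 0.41). Each of these 6 genes had a mean under 5 CPM with water.

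**Figure D3:**
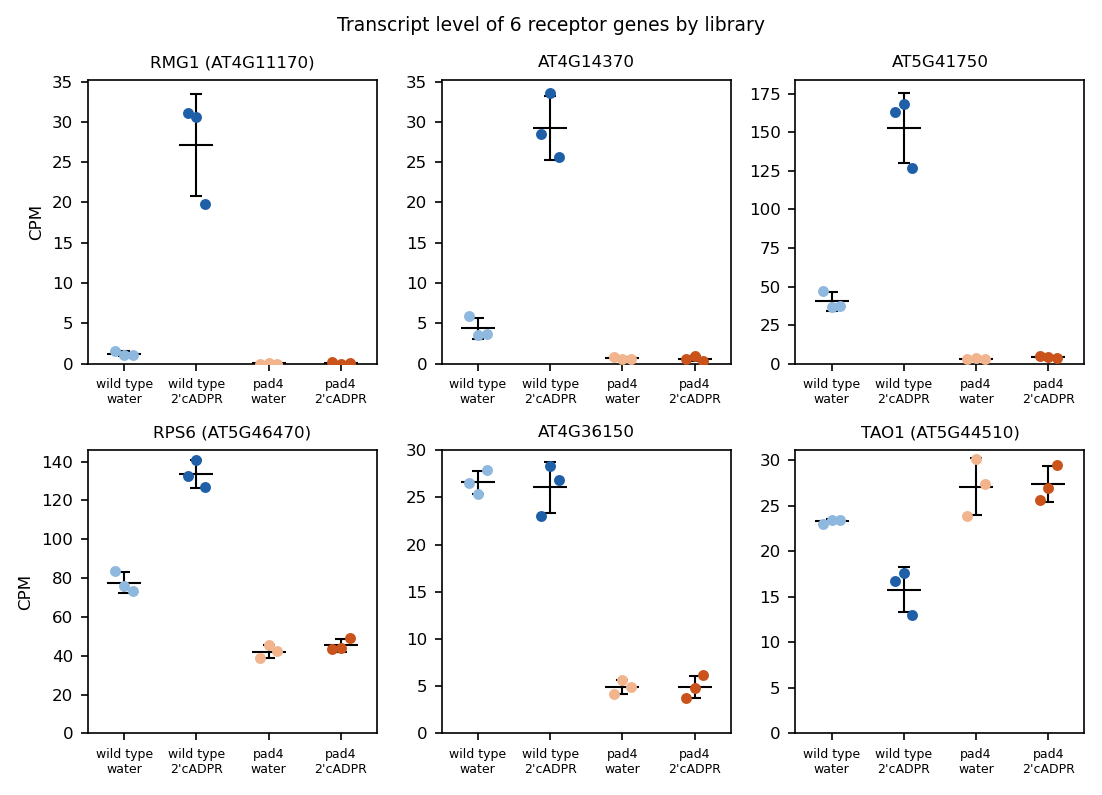
CPM of 6 receptor genes in each library (points), with the group mean (horizontal line) and SD (bar, n = 3). RMG1, AT4G14370 and AT5G41750 are high in wild type with 2'cADPR and low in both pad4 groups. RPS6 is highest in wild type with 2'cADPR and lower, though not scarce, in both pad4 groups. AT4G36150 is at about 26 CPM in both wild type groups and about 5 CPM in both pad4 groups, and TAO1 is lowest in wild type with 2'cADPR.

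Of the 9 receptors with a symbol in the annotation used, 7 rose, TAO1 fell and RLM1 passed in neither direction. Among all tested genes, 34.6% were called up. Other receptors with a described immune role are given here by gene code. Of these, AT1G56540, AT1G63750, AT2G14080, AT4G19510, AT5G18360, AT5G18370 and AT5G58120 rose. AT4G19500 fell, and AT1G63880 and AT5G11250 passed in neither direction. RPS6 (AT5G46470), which recognises the effector HopA1 of Pseudomonas syringae, held 83.8, 75.9 and 73.1 CPM with water and 133, 141 and 127 CPM with 2'cADPR. WRR4 (AT1G56510), which gives resistance to white rust, held 64.4, 57.0 and 59.3 CPM with water and 130.4, 137 and 119 CPM with 2'cADPR. The groups did not overlap for either gene, and the log2 fold changes were 0.78 ± 0.079 (adjusted p = 3.62e-07) for RPS6 and 1.1 ± 0.074 (adjusted p = 4.44e-09) for WRR4. RPP1 (AT3G44480), named after a locus for resistance to downy mildew, rose from 78.7 ± 7.59 to 181 ± 18.5 CPM (log2 1.21 ± 0.090, adjusted p = 1.37e-08). VICTR (AT5G46520), a receptor through which a synthetic small molecule arrests root growth, rose from 15.9 ± 0.592 to 41.0 ± 2.1 CPM (log2 1.37 ± 0.090, adjusted p = 3.52e-09). LAZ5 (AT5G44870), a receptor behind the cell death of the acd11 mutant, rose from 46.6 ± 1.48 to 65.8 ± 4.05 CPM (log2 0.50 ± 0.079, adjusted p = 4.86e-05). RLM1 (AT1G64070), a gene for blackleg resistance, was scarce and did not pass the test, at 0.267 ± 0.0408 CPM with water and 0.591 ± 0.238 CPM with 2'cADPR (adjusted p = 0.0841). It passed without wild type 2'cADPR replicate 3 (adjusted p = 0.0465).

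Many of these genes sit in clusters of neighbouring, related receptors, and 34.6% of all tested genes were called up. All 4 genes of the RPP1 group on chromosome 3 rose: beside RPP1 these were AT3G44400 (log2 1.84 ± 0.15), AT3G44630 (1.36 ± 0.083) and AT3G44670 (1.26 ± 0.089). All 3 genes of the WRR4 group on chromosome 1 rose, with AT1G56520 at 0.90 ± 0.072 and AT1G56540 at 0.58 ± 0.18 on the log2 scale. In the RLM1 region, also on chromosome 1, only 1 of 3 tested genes rose, AT1G63750 (1.74). RLM1 and AT1G63880 passed in neither direction. The adjacent genes AT5G41740 and AT5G41750 on chromosome 5 rose by similar amounts, and both were abundant after 2'cADPR. AT5G41740 held 47.1, 38.6 and 40.7 CPM with water and 160.0, 149 and 127 CPM with 2'cADPR (log2 1.79 ± 0.14). AT5G41750 held 47.4, 36.9 and 37.1 CPM with water and 163, 169 and 127 CPM with 2'cADPR (log2 1.92 ± 0.12). In the group around RPS6 and VICTR, 6 of 7 genes rose, among them AT5G46490 (0.65 ± 0.093), AT5G46260 (0.38 ± 0.077) and AT5G46450 (0.24 ± 0.084), and AT5G46270 did not pass (log2 -0.17 ± 0.090, adjusted p = 0.105; 0.0465 without wild type 2'cADPR replicate 2). VICTR and its neighbour VICTL (AT5G46510) had different estimates, since VICTL went from 23.8 ± 0.746 to 27.3 ± 0.628 CPM (log2 0.20 ± 0.082, adjusted p = 0.0444). Whether the 2 responses differ from each other was not tested.

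Rises were also called outside these groups. AT5G58120 rose from 27.5 ± 0.758 to 76.4 ± 7.01 CPM (log2 1.47 ± 0.094) and AT1G31540, one of the more abundant receptors, from 82.4 ± 6.60 to 154 ± 15.7 CPM (log2 0.91 ± 0.12). The neighbours AT5G18360 and AT5G18370 rose by 1.0 ± 0.18 and 1.03 ± 0.12 on the log2 scale. AT2G16870 (0.87 ± 0.15) and the scarce AT5G38340 (1.45 ± 0.44) rose as well, and smaller rises were called for AT1G69550 (0.40 ± 0.10), AT1G27180 (0.39 ± 0.11) and AT5G22690 (0.32 ± 0.12).

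Copies within a cluster share sequence, which makes their counts uncertain. Of all stretches of 50 bases in its exons, VICTR shared 66.2% with other genes, mainly VICTL, and VICTL shared 49.5%, mainly with VICTR. RPP1 shared 44.3% and AT3G44670 36.6%, mainly with each other, and AT3G44630 shared 28.2%. AT5G46490 shared 25.9%, AT5G46260 22.3%, AT1G27170 19.6%, AT1G27180 18.5%, AT3G44400 17.2%, AT5G41740 13.3% and AT5G41750 12.3%. These 12 genes are the only kept receptors above 10%, and 25 of the 48 shared no such stretch. In addition, 9 of the 48 overlap a gene on the opposite strand, among them AT3G04220, AT4G36150, TAO1, AT2G14080 and AT5G58120, and the sources used here do not state whether counting used the strand, so reads of the partners cannot be told apart. RPP1 and AT3G44670 overlap a gene on the same strand (2 of the 48), where a strand setting would not separate the reads.

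Against the majority, 4 receptors fell in wild type. The clearest was AT4G19530, the most abundant receptor of the water-treated leaf. Its water libraries held 121, 138 and 132 CPM and its 2'cADPR libraries 45.7, 47.7 and 49.7 CPM, a tight and well-separated fall of 2.74-fold (log2 -1.45 ± 0.063, adjusted p = 6.75e-11). TAO1 (AT5G44510), which contributes to the response to the effector AvrB of Pseudomonas syringae, held 23.0, 23.4 and 23.5 CPM with water and 16.7, 17.6 and 13.0 CPM with 2'cADPR (log2 -0.56 ± 0.11, adjusted p = 3.84e-04). AT4G19500 held 56.0, 55.9 and 53.1 CPM with water and 38.3, 42.0 and 38.9 CPM with 2'cADPR (log2 -0.47 ± 0.074, adjusted p = 4.66e-05). The groups did not overlap for any of these 3 genes. AT5G40910 was called with a small fall, from 63.6 ± 2.11 to 56.0 ± 4.49 CPM (log2 -0.18 ± 0.077, adjusted p = 0.0473).

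Calls near the threshold depended on single libraries and, for AT5G40910 and VICTL among others, also on the settings of the test. Settings were compared gene by gene only for a chosen set of named genes. Called rises went from 36 to 34 with no filter on low counts, and falls from 4 to 5 under a filter of 5 CPM in 3 libraries. In the fits with 1 library left out, the fall of AT5G40910 was called only when wild type 2'cADPR replicate 2, pad4 2'cADPR replicate 2 or pad4 water replicate 2 was the library left out, and was lost without any of the other 9 (adjusted p up to 0.264). It was also lost under DESeq2 (adjusted p = 0.179), RLE factors (0.140), no filter on low counts (0.0730) and a replicate block (0.0558), and when only the groups compared were fitted (0.0567). The rise of VICTL was called only without wild type 2'cADPR replicate 3, pad4 2'cADPR replicate 2 or pad4 2'cADPR replicate 3, and was lost without any of the other 9 (adjusted p up to 0.125). It was also lost under a filter of 5 CPM in 3 libraries (adjusted p = 0.0701), no filter (0.0544) and a replicate block (0.0562), and when only the groups compared were fitted (0.0513). AT5G48770, the receptor that reached the count minimum in 1 group alone, lost its call without wild type 2'cADPR replicate 1 or 2 or wild type water replicate 2 or 3 (adjusted p up to 0.121). AT5G22690 lost its call without wild type 2'cADPR replicate 2 or wild type water replicate 1 or 3 (adjusted p up to 0.0701). AT5G46450 lost its call without wild type 2'cADPR replicate 1 or wild type water replicate 3 (adjusted p up to 0.094).

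Neighbouring receptors on chromosome 4 moved in opposite directions. AT4G19500, AT4G19510, AT4G19520 and AT4G19530 lie next to one another within chr4:10625562-10657282 (TAIR10.1), with AT4G19520 on the minus strand and the others on the plus strand. AT4G19500 and AT4G19530, at the ends, fell, and the genes between them rose. AT4G19520 held 88.6, 83.3 and 87.3 CPM with water and 201, 227 and 202 CPM with 2'cADPR (log2 1.28 ± 0.070, adjusted p = 5.62e-10). AT4G19510 held 52.7, 55.1 and 50.7 CPM with water and 65.0, 66.4 and 63.3 CPM with 2'cADPR (log2 0.30 ± 0.059, adjusted p = 3.66e-04). None of the 4 genes shared a stretch of 50 bases with another gene.

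**Figure D4:**
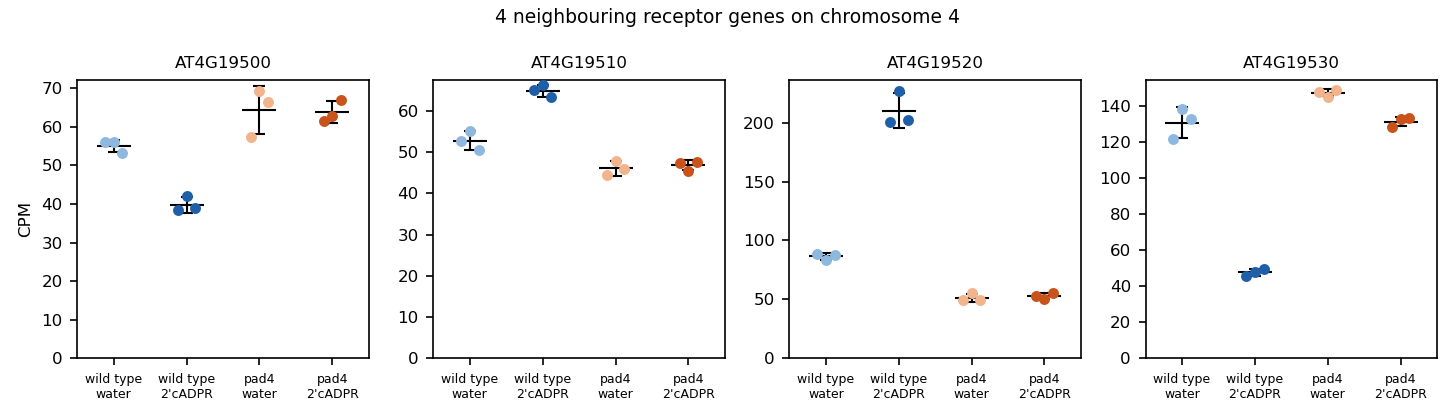
CPM of 4 neighbouring receptor genes in each library (points), with the group mean (horizontal line) and SD (bar, n = 3). In wild type, AT4G19500 and AT4G19530 are lower with 2'cADPR than with water while AT4G19510 and AT4G19520 are higher, and in pad4 the AT4G19510 and AT4G19520 libraries overlap between treatments.

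Among the 8 receptors that passed in neither direction, several were abundant. AT1G63880 stood at 103 ± 8.86 CPM with water and 105 ± 4.96 CPM with 2'cADPR, with a 95% interval of the log2 fold change from -0.11 to 0.17. AT4G36150 stood at 26.6 ± 1.24 and 26.1 ± 2.74 CPM (interval -0.30 to 0.25), and AT5G11250 at 40.5 ± 1.42 and 38.3 ± 3.85 CPM (interval -0.23 to 0.071). For these 3 genes the intervals leave room only for changes well under 2-fold. AT5G38850 (0.12 ± 0.11) and AT1G27170 (0.11 ± 0.16) also passed in neither direction. RLM1 and AT5G17680 were too scarce to set such limits, with unadjusted intervals from 0.039 to 2.23 and from -0.15 to 1.98. The RLM1 interval leaves out 0 although its unadjusted p in the edgeR test was not under 0.05. Such intervals are thus somewhat too narrow.

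The second comparison asked whether receptors responded to 2'cADPR in leaves without PAD4. No receptor was called in pad4 (0 of 48; edgeR, with DESeq2 and limma-voom also at 0 of 48), where 0.00509% of all tested genes, 1 gene, was called. At an unadjusted p under 0.05 stood 6 receptors with edgeR, 6 with DESeq2 and 3 with limma-voom, against 5.05% of all tested genes with edgeR, and the lowest adjusted p among receptors was 0.449 with edgeR. The median log2 fold change was 0.030. For the 32 receptors with at least 5 CPM in a pad4 group, estimates ran from -0.17 to 0.30, and their 95% intervals stayed between -0.39 and 0.58. A change of 2-fold in either direction thus lay outside the interval of each of these 32 genes, whereas smaller changes within these intervals cannot be told from 0.

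AT4G14370 held 0.867, 0.598 and 0.558 CPM in the pad4 water libraries and 0.587, 0.906 and 0.303 CPM in the pad4 2'cADPR libraries. RPS6 held 38.6, 45.4 and 42.4 CPM and 43.3, 43.8 and 49.3 CPM in the same groups, and AT4G19520 held 49.7, 55.4 and 49.5 CPM and 52.5, 50.2 and 55.3 CPM. In each gene the treated and water libraries of pad4 overlapped. AT5G41750 was under 5 CPM in every pad4 library and so outside the 32 receptors above. It held 2.97, 3.38 and 2.70 CPM with water and 4.81, 4.09 and 3.84 CPM with 2'cADPR (log2 0.49 ± 0.16, adjusted p = 0.860). AT4G19530 held 148, 145 and 149 CPM with water and 128, 132 and 133 CPM with 2'cADPR (log2 -0.17 ± 0.061, adjusted p = 0.871). Neither gene's groups overlapped, as was the case for 6 of the 48 receptors and 13% of all tested genes. Of AT1G65850, pad4 held 0 reads after water and 16 after 2'cADPR, at least 5.20-fold more against a floor of 3 reads over the group, with an adjusted p of 0.449. Of AT5G41550, pad4 held 3 reads after water and 18 after 2'cADPR, 13 of them in replicate 2, a ratio of 5.85 with a 95% counting interval of 1.71 to 31.0 (adjusted p = 0.906). Of RMG1, pad4 held 3 and 9 reads, a ratio of 2.92 (0.730 to 16.8, adjusted p = 0.985). All 3 genes thus had more reads in treated than in water-treated pad4 leaves, with none called, and the counting intervals do not cover the spread between libraries. The scarce RLM1 held 3, 3 and 1 reads with water and 10, 2 and 6 reads with 2'cADPR in pad4. Its pad4 log2 estimate was 1.28, not called, beside 1.14 in wild type. Of the 48 pad4 estimates, 28 were above 0, and those 4 genes had the only ones of at least 1 in size.

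The difference between the 2 responses was tested as an interaction, the pad4 log2 response minus the wild type one. It was called for 31 receptors, 27 below 0 and 4 above, where 57.6% of all tested genes were called, 28.2% below 0 and 29.4% above. The median was -0.67 over the receptors and 0.0097 over all tested genes. Over the 42 receptors that reached the minimum in every group, 27 were called below 0 and 3 above, with a median of -0.57. Among the steepest differences were AT3G04220 (-2.95 ± 0.60, adjusted p = 6.05e-04), AT4G14370 (-2.91 ± 0.43, adjusted p = 3.77e-05) and AT3G25510 (-1.99 ± 0.43, adjusted p = 0.00100). The value of AT3G04220 moved to -4.12 without pad4 2'cADPR replicate 2, where it stayed called. AT4G19530 (1.29 ± 0.087, adjusted p = 1.89e-08), TAO1 (0.58 ± 0.16, adjusted p = 0.00550) and AT4G19500 (0.45 ± 0.10, adjusted p = 0.00165) had positive values. Each of these genes fell in wild type and was not called in pad4. The fourth positive call, AT1G65850, rests on a pad4 water group without reads, so that its fitted size has no meaning, and it was lost in 9 of the 12 fits with 1 library left out, and under DESeq2, limma-voom, no filter and the replicate block. It kept its call only without wild type water replicate 1, pad4 2'cADPR replicate 1 or pad4 2'cADPR replicate 3. RMG1, with 3 reads in pad4 after water, was not called (adjusted p = 0.163) although it had the largest wild type response, and DESeq2 did call it (adjusted p = 0.00749). AT5G18360 lost its call (-0.79) without pad4 2'cADPR replicate 3 or pad4 water replicate 3. AT5G22690 (-0.48) lost it without wild type 2'cADPR replicate 2, wild type water replicate 3, pad4 2'cADPR replicate 2 or 3 or pad4 water replicate 2.

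The third comparison set pad4 against wild type in leaves that had received water, which shares the wild type water libraries with the first. Here 35 of 48 receptors were lower in pad4 and 2 were higher, where 29.2% of all tested genes were called, 17.5% lower and 11.7% higher. A difference of at least 2-fold was called for 17 receptors on the lower side, against 6.21% of all tested genes. The median log2 difference was -0.71 over the receptors and 0.0017 over all tested genes. Over the 42 receptors above the minimum in every group, 31 were lower and 2 higher, with a median of -0.57. In bulk leaf RNA, fewer cells that express a gene and less RNA per cell cannot be told apart.

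**Figure D5:**
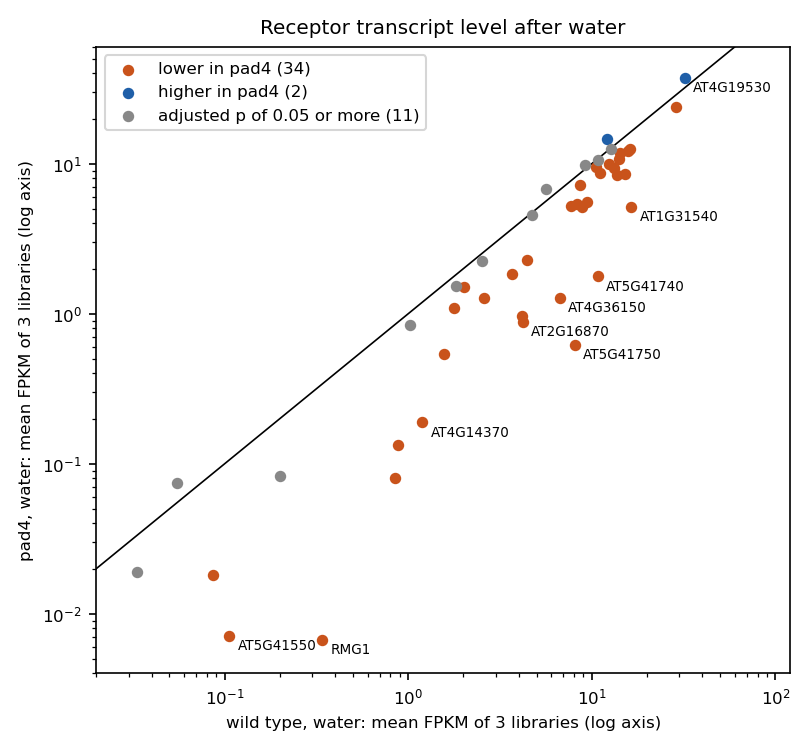
Mean FPKM of each receptor after water in wild type (horizontal axis) and pad4 (vertical axis), both on log axes, 3 libraries per group; the line marks equal levels, colours give the edgeR call, and AT1G65850 is left out because pad4 after water held 0 reads of it. Most points lie below the line, and the AT4G19530 point lies just above it at the upper end.

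The strongest differences after water were in genes at low levels in pad4. AT5G41750 held 47.4, 36.9 and 37.1 CPM in wild type and 2.97, 3.38 and 2.70 CPM in pad4 (log2 -3.74 ± 0.15, adjusted p = 4.31e-10). Its neighbour AT5G41740 held 47.1, 38.6 and 40.7 CPM in wild type and 5.20, 8.39 and 6.68 CPM in pad4 (log2 -2.64 ± 0.15, adjusted p = 8.66e-09). AT3G25510 stood at 3.86 ± 1.17 CPM in wild type and 0.356 ± 0.138 CPM in pad4 (log2 -3.42 ± 0.28, adjusted p = 2.90e-07). In all 3 genes every pad4 library was far below every wild type library. RMG1 had 139 reads over the 3 wild type libraries and 3 over the 3 pad4 libraries, a ratio of 51.8 with a 95% counting interval of 17.4 to 254. All 3 pad4 reads lay in pad4 water replicate 2, and the fitted log2 difference of -5.53 became -8.66 without it, against a group with no reads, so that its size has no meaning. AT5G41550 had 42 and 3 reads, a ratio of 15.6 (5.0 to 78.9), and its fitted log2 difference of -3.79 became -4.64 without pad4 water replicate 1. AT1G65850 had 59 reads in wild type and 0 in pad4, at least 22.0-fold lower against a floor of 3 reads over the group. These intervals and floors cover counting error only. AT3G04220 (log2 -2.76 ± 0.40), AT4G14370 (-2.68 ± 0.29), AT2G16870 (-2.29 ± 0.17), AT3G44400 (-2.15 ± 0.16) and AT1G31540 (-1.72 ± 0.13) were also lower in pad4. VICTL stood at 23.8 ± 0.746 CPM in wild type and 11.8 ± 0.558 CPM in pad4 (log2 -1.02 ± 0.084), next to VICTR with a difference of -1.03 ± 0.094.

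Some receptors were lower in pad4 without having passed the test for 2'cADPR in wild type. AT4G36150 held 26.5, 25.4 and 27.9 CPM in water-treated wild type, 23.0, 28.3 and 26.8 CPM in wild type after 2'cADPR, 4.17, 5.65 and 4.86 CPM in pad4 after water and 3.77, 4.75 and 6.15 CPM in pad4 after 2'cADPR. Every wild type library lay above every pad4 library, whereas the libraries of the 2 treatments overlapped within each genotype (pad4 against wild type after water, log2 -2.44 ± 0.15, adjusted p = 1.78e-08). AT5G11250 showed a smaller difference of the same kind, at 40.5 ± 1.42 CPM in wild type and 22.9 ± 0.841 CPM in pad4 after water (log2 -0.82 ± 0.077, adjusted p = 1.07e-06). The reverse was seen in AT1G63750, which rose in wild type (log2 1.74 ± 0.11) and stood at 11.4 ± 1.66 CPM in wild type and 9.77 ± 0.522 CPM in pad4 after water (log2 -0.22 ± 0.12, adjusted p = 0.167). AT2G14080 likewise rose in wild type (0.46 ± 0.066) and was not called after water (-0.068 ± 0.066, adjusted p = 0.492).

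RPS6, RPP1, WRR4 and LAZ5 were lower in pad4 after water, each by less than 2-fold, and TAO1 was not called (0.22 ± 0.11, adjusted p = 0.160). RPS6 stood at 77.6 ± 5.54 CPM in wild type and 42.1 ± 3.38 CPM in pad4 after water (log2 -0.88 ± 0.080, adjusted p = 7.34e-07). RPP1 differed by -0.43 ± 0.090, WRR4 by -0.40 ± 0.074 and LAZ5 by -0.41 ± 0.080 on the log2 scale, and all 3 were called. The receptors higher in pad4 were AT4G19500 (0.23 ± 0.074, adjusted p = 0.0312) and AT4G19530 (0.17 ± 0.061, adjusted p = 0.0470), which had both fallen with 2'cADPR in wild type. These 2 calls were fragile. That of AT4G19500 was lost without wild type water replicate 2 or 3 or pad4 water replicate 2 or 3 (adjusted p up to 0.141), and that of AT4G19530 was kept only without wild type water replicate 2, wild type 2'cADPR replicate 1, wild type 2'cADPR replicate 2 or wild type 2'cADPR replicate 3. The call of AT4G19530 was also lost with no filter and when only the groups compared were fitted, and the latter fit lost those of AT4G19510 and AT5G18370 too. AT4G19510 lost its call without wild type water replicate 1 or 2 or pad4 water replicate 1 or 3, and AT5G18370 without wild type water replicate 1 or pad4 water replicate 1 or 3. RLM1 was called (log2 -2.24 ± 0.72) but lost its call without wild type water replicate 2 or 3 or any 1 of the 3 pad4 water libraries, under limma-voom and with no filter. AT5G38340 was not called (-1.31 ± 0.49, adjusted p = 0.0594) but was called without pad4 2'cADPR replicate 1 or 3 or pad4 water replicate 2.

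The fourth comparison set pad4 against wild type after 2'cADPR and shares the wild type 2'cADPR libraries with the first. Of 48 receptors, 42 were lower in pad4 and 3 were higher, where 74.2% of all tested genes were called, 36.8% lower and 37.4% higher. At least 2-fold lower were 33 receptors, against 18.5% of all tested genes, and the median log2 difference was -1.56, beside 0.021 over all tested genes. Over the 42 receptors that reached the minimum in every group, 37 were lower and 3 higher, with a median of -1.45. AT5G41750 held 163, 169 and 127 CPM in wild type and 4.81, 4.09 and 3.84 CPM in pad4 (log2 -5.17 ± 0.15, adjusted p = 4.59e-13). AT4G14370 held 28.5, 33.5 and 25.7 CPM in wild type and 0.587, 0.906 and 0.303 CPM in pad4 (log2 -5.59 ± 0.29, adjusted p = 1.07e-10). In both, the lowest wild type library was more than 10-fold above the highest pad4 library. RMG1 stood at 27.1 ± 6.38 CPM in wild type and had 9 reads over the 3 pad4 libraries (log2 -8.58, and -10.04 without pad4 2'cADPR replicate 1). AT3G04220 differed by -5.71 and by -6.87 without pad4 2'cADPR replicate 2. AT4G19530 (1.46 ± 0.063), TAO1 (0.79 ± 0.11) and AT4G19500 (0.68 ± 0.074) were the receptors higher in pad4, each with non-overlapping groups. AT5G40910 was called lower (-0.20) although its groups overlapped, and lost the call without wild type 2'cADPR replicate 2 or 3 or pad4 2'cADPR replicate 2, under the filter of 5 CPM and when only the groups compared were fitted. AT5G38850 was called lower (-0.29) and lost the call without wild type 2'cADPR replicate 2 or any 1 of the 3 pad4 2'cADPR libraries. AT1G27170 was not called (-0.37) but was called without wild type 2'cADPR replicate 1 or pad4 2'cADPR replicate 3.

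The genes through which these receptors signal were measured beside them. PAD4 itself, the mutated gene, is left out of the counts, since its level in pad4 is set by the design. Of the other 8 genes for EDS1-type proteins and helper receptors, 7 rose in wild type, none was called in pad4, 7 were lower in pad4 after water and 8 after 2'cADPR. Over all 19652 tested genes, 34.6% were called up in wild type and 1 gene was called in pad4. Called lower in pad4 were 17.5% of all tested genes after water and 36.8% after 2'cADPR. The same shares stand beside the other lists below. EDS1 (AT3G48090), the shared partner of PAD4 and SAG101, had a log2 fold change of 1.68 ± 0.10 in wild type and -0.0077 ± 0.10 in pad4. ADR1 (AT1G33560), a helper receptor, had 1.99 ± 0.12 and -0.050 ± 0.13. The helper receptor genes AT5G66900 and AT5G66910 had 0.46 ± 0.10 and 1.65 ± 0.15 in wild type. All 6 genes of the receptor chaperone list (RAR1, SGT1A, SGT1B and 3 HSP90 genes) rose in wild type, with SGT1A, a co-chaperone that stabilises receptors, at 1.68 ± 0.087 and none called in pad4. Of 4 genes that limit receptor level, 2 of the 3 tested rose, and BON1 had too few counts to be tested. SRFR1, an adaptor that represses receptor accumulation, rose by 0.53 ± 0.067 (log2), and CPR1, an F-box protein that targets receptors for degradation, had -0.053 ± 0.078 (adjusted p = 0.564). Related receptors were measured too: 5 of 7 genes of the RPP5 and SNC1 cluster and 6 of 7 of the head-to-head pairs rose in wild type, with medians of 0.92 and 0.87 on the log2 scale, and none of these 14 was called in pad4. No difference between these sets was tested.

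Some markers of leaf cell types also moved with the treatment in wild type, where 34.6% of all tested genes were called down and 34.6% up. Of 4 mesophyll markers 3 fell and none rose, and their summed level ran from 16126 to 21361 CPM with water and from 8887 to 9850.1 CPM with 2'cADPR, with 17650.3 to 18672 and 16358 to 17745 CPM in the pad4 groups. Of 6 epidermal markers 5 fell and none rose, with summed levels of 2887 to 3019 CPM with water and 996 to 1173 CPM with 2'cADPR in wild type, and 1790.0 to 2654 and 2133 to 2570.1 CPM in the pad4 groups. PDF1, a defining epidermal marker, was near 0 in every group. Of 5 guard cell markers 1 rose and 1 fell, with summed levels of 46.4 to 55.7 CPM with water and 49.5 to 64.3 CPM with 2'cADPR, and of 3 phloem markers 1 fell, with 288 to 302 and 267 to 288 CPM. The part of these changes in the receptor results was not tested.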

How the data were processed

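Messenger RNA libraries from rosette leaves (12, in 4 groups of 3 taken from the sample titles and labels) were made, per the labels' protocols, with TRIzol and a SMARTER kit. Per the submitters' processing notes, the authors used fastp, HISAT and HTSeq with TAIR10; their versions and the strand setting were not stated. Raw counts per gene, as deposited, were the values tested. The FPKM deposited by the authors (counts divided by exon length and by library size) were used only to compare levels between genes.

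The tool was edgeR 4.0.16 under R 4.3.3 (TMM normalisation, filterByExpr with a minimum count of 10, quasi-likelihood fit of all 12 libraries, two-sided), with Benjamini-Hochberg adjustment over 19652 genes and a threshold of 0.05. Intervals of log2 fold changes are the estimate ± 1.96 SE. They ignore the limited degrees of freedom of the test, so they are somewhat narrower than the stated 95%. DESeq2 1.42.0, limma-voom (limma 3.58.1), RLE factors, other filters, a replicate block and leaving out each library were the alternatives. Library totals of 35.8 to 44.4 M counts gave a median SE of 0.11 (log2) over the receptors in wild type.

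Gene lengths matched the RefSeq exons of TAIR10.1 for 24224 of 24228 genes (99.98%), so its coordinates and upstream sequence were used; gene names are those of RefSeq. Upstream windows of 250 bases were printed without transcribed sequence.

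The members and lists were chosen with earlier results of these data known. Named genes were receptors with a symbol and a described immune role, some of which RefSeq gives by gene code only. The 5 largest called rises and 5 largest called falls with non-overlapping groups in each comparison were added (overlap not asked of the interaction). Called genes that moved against the majority and the signalling partners were named too. Other genes, such as AT4G36150, AT4G19520, AT3G44670 and AT1G31540, were chosen after their values were seen. Protein sequences were not used here.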

Additional observations from a re-analysis of the deposited data

Results flagged for a closer look

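For 31 receptors the response to 2'cADPR differed between the genotypes by a test of the difference itself, the edgeR interaction of genotype and treatment at a Benjamini-Hochberg adjusted p under 0.05. Values are the pad4 log2 response minus the wild type log2 response. Differences below -1 were measured for AT3G04220 (-2.95), AT4G14370 (-2.91), AT3G25510 (-1.99), AT5G41740 (-1.68), AT1G63750 (-1.67), AT5G58120 (-1.64), AT3G44400 (-1.60), VICTR (-1.48), AT5G41750 (-1.43), AT3G44630 (-1.36), AT4G19520 (-1.25), AT3G44670 (-1.18), WRR4 (-1.16), RPP1 (-1.12) and AT1G56520 (-1.06). Differences between -1 and 0 were measured for AT1G31540 (-0.89), AT2G16870 (-0.82), AT5G18360 (-0.79), AT5G46490 (-0.72), AT5G18370 (-0.72), RPS6 (-0.67), AT5G22690 (-0.48), AT2G14080 (-0.47), LAZ5 (-0.46), AT5G46260 (-0.39), AT5G46450 (-0.39) and AT4G19510 (-0.27). Values above 0 were measured for AT4G19500 (0.45), TAO1 (0.58), AT4G19530 (1.29) and AT1G65850 (3.28). The value of AT1G65850 rests on 0 reads in pad4 after water, so its size depends on the prior count of the fit, and DESeq2, limma-voom and the replicate block did not call it (adjusted p of 0.0844, 0.248 and 0.0598). Groups of 3 libraries are too small to look for single outlying libraries.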

How the results depend on the processing

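Counts and medians over the receptors held within 1.5 times, or within their spread, under DESeq2, limma-voom and RLE factors. A filter of 5 CPM in 3 libraries left 42 receptors and moved the medians, to 0.68 for 2'cADPR in wild type, -0.56 for pad4 against wild type after water and -1.41 after 2'cADPR, by construction through the loss of scarce genes. After water, 1 receptor in place of 2 was called higher in pad4 with no filter on low counts and when only the groups compared were fitted, and the latter fit (45 receptors tested) gave a median of -0.58. The cause of these changes was not tested beyond the number of genes. With each library left out in turn, called rises in wild type ran from 32 to 37, falls from 3 to 5 and the median from 0.83 to 0.94. In pad4 the count stayed at 0 in all 12 fits. Interaction calls ran from 3 to 4 above and 25 to 27 below 0, with medians from -0.69 to -0.52. After water 0 to 2 receptors were called higher and 32 to 36 lower (median -0.76 to -0.62), and after 2'cADPR 3 higher and 40 to 43 lower (median -1.62 to -1.51). Of 2611 values of single named genes under alternatives, 2515 kept their direction and side of the threshold, 77 lost the call, 2 gained one, 17 values that were not called moved by more than 1 SE and 0 reversed. Deviations of libraries with the same replicate number were weakly correlated (18 pairs, -0.151 to 0.138, 2 of them over 0.1). Pairs with different numbers ran from -0.200 to 0.234. With 3 libraries per group, the check cannot settle whether same-numbered libraries share a batch. With a replicate block, 35 receptors rose and 3 fell in wild type, 0 were called in pad4, 3 interactions lay above and 27 below 0, 35 were lower and 2 higher in pad4 after water, and 43 lower and 3 higher after 2'cADPR. Depth limits the scarce receptors, where pad4 groups held a few reads.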
